A study of Homo sapiens with 30 samples.

Results

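Genes whose symbols end in -AS1 are antisense transcripts, named after the gene that lies on the opposite strand of the same locus. The 194 genes described here were chosen by their raw counts: each -AS1 gene with a mean of at least 40 counts per library over the 28 libraries other than Mock, out of 1665 -AS1 genes and 61578 genes in the deposited tables. That sum was the measured value behind the choice, so their abundance is given as a description without a test. Just inside the limit were GOLGA4-AS1 with a sum of 1131 counts, CDKN2B-AS1 with 1133 and PDCD4-AS1 with 1137, and just outside it SLC25A5-AS1 with 1103, ENTPD3-AS1 with 1085 and ZNF561-AS1 with 1072. All 194 passed the filter on low counts and were among the 19982 genes tested. Each was set beside its partner, the gene whose symbol precedes -AS1; 190 of the 194 partners were also tested.

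Many promoters of coding genes start transcription in both directions, and the outward product is often a capped and polyadenylated antisense RNA. RNA polymerase II makes these RNAs as well as the mRNAs, and the C-terminal domain (CTD) of its largest subunit RPB1, a repeated heptad, carries the phosphorylation marks that recruit capping, splicing, termination and decay factors. Promoter antisense RNAs are commonly ended early by Integrator or the cleavage and polyadenylation machinery, and the nuclear exosome with its adaptors degrades much of what is made, so their level depends on synthesis as well as on termination and decay.

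The study sequenced polyadenylated RNA from 30 libraries in 15 groups of 2, all labelled A549, a human lung adenocarcinoma cell line. The degron line carries a degradable endogenous RPB1 that dTAGV-1 removes, and 6 further lines carry the same degron with an added doxycycline-induced RPB1 whose CTD is wild type (WT) or changed at 1 heptad position: Y1F, S2A, T4V, S5A or S7A. Treated cells of these 6 lines received 2 µg/mL doxycycline for 24 h followed by 100 nM dTAGV-1 for 12 h, and treated degron cells received dTAGV-1 alone, so in comparisons with the degron line doxycycline and the added RPB1 cannot be told apart. The remaining group, Mock, has the genotype label WT and no treatment, and enters no comparison. The labels say neither whether a line is 1 clone nor whether the libraries of a group came from separate cultures, so p-values measure only the spread between libraries, which may be technical. A line's 4 libraries are called untreated and treated below, and a change is the treated level against the untreated level within a line.

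The 28 libraries go against their cell line label. Summed TPM (a level per transcript length, as a share of the library) of 16 A549 and lung epithelial markers was 30374 to 30446 in Mock and 90.2 to 160 in the others, while 8 embryonic kidney HEK293 or neuronal markers summed to 11.1 in Mock and 239 to 832 in the others. Not every marker followed its sum. Of the lung markers, NKX2-1 had a mean of 0.152 TPM in Mock and 1.72 to 13.7 in the other groups. CPS1 had 11.1 in Mock, 4.76 in untreated WT and 29.99 in treated S7A, and NAPSA 1.435 in Mock and 0.645 to 1.67 elsewhere. TUBB3, a HEK293 or neuronal marker, had 2.89 in Mock and 0.109 to 2.02 elsewhere. The HEK293 or neuronal sum was lower in treated libraries of each line, from 774 to 801 TPM untreated to 312 to 328 treated in degron and from 808 to 832 to 526 to 587 in WT. CDKN2A, part of this sum, went the other way, from a mean of 138.5 to 168.4 TPM in degron and from 122.2 to 132.1 in WT. The sum of 6 immune markers was higher in treated libraries of each line, from 6.13 to 6.51 TPM untreated to 24.3 to 29.6 treated in degron, and from 3.92 to 4.64 to 11.5 to 13.2 in WT. SELPLG made the largest part of this rise, from a mean of 0.754 to 17.2 TPM in degron and from 0.547 to 5.40 in WT. PTPRC, CD3E and CD68 stayed near 0. The sum of 5 endothelial markers reached at most 5.15 TPM and was higher in treated libraries of the 6 lines other than WT, from 0.387 to 0.773 to 3.54 to 3.80 in S2A and from 1.27 to 1.91 to 4.53 to 5.15 in Y1F, and overlapped in WT (1.32 to 1.53 and 1.36 to 1.80). The sum of 5 fibroblast markers was 3.03 to 22.6 TPM over all 30 libraries. Their part in the results was not tested. IRS4, a defining HEK293 gene, was near 0 in Mock. Library totals ran from 10866089 to 17912802 counts, and -AS1 members took 0.13% to 0.23% of them. POLR2A, the gene for RPB1, was higher in treated libraries by 1.46 on the log2 scale in S7A, 1.43 in S5A, 1.38 in WT, 1.11 in S2A and 0.97 in Y1F. In T4V its change was 0.56 (adjusted p = 0.11) and in degron, which has no added RPB1, 0.55 (adjusted p = 0.092), neither of them called. The degron acts on the protein, so this mRNA does not check its removal, and whether reads of the added RPB1 count toward POLR2A is not given in the sources used here.

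Of the 194 members, 191 were found in GENCODE 29 (hg38), 145 of them typed as antisense, 24 as processed transcripts and 19 as lincRNAs. By position, 71 members (36.6%) were head-to-head with the partner, with starts on opposite strands at most 1000 bases apart. A further 44 overlapped the partner tail-to-tail, 44 lay within the partner's span or held it, and 30 overlapped the partner's 5′ end with starts further apart. This last class was added after the data had been seen. The strand setting of the authors' counting is not given in the sources used here. Of 17 coding genes with at least 99% of their exon bases under exons of the other strand, 12 (70.6%) had no count in any library, against 1003 of 13093 (7.66%) among coding genes with no such base. Reads from an -AS1 exon inside the partner's introns cannot be told apart from unspliced partner RNA without strand, so the share of exon bases inside the partner's span (GENCODE 29) is given for the members described at most length; the median over members was 23.8%, and 23 members had none.

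The promoters of 4 head-to-head members are shown because these transcripts fell or rose in all 6 lines other than WT. RAB4A-AS1 and CCNT2-AS1 fell in all 6, and RBM26-AS1 and MAP3K4-AS1 rose in all 6. In WT CCNT2-AS1 was also called fallen, at -0.96, and MAP3K4-AS1 risen, at 1.12. RAB4A-AS1 at -0.50 and RBM26-AS1 at 0.67 were not called there. Each sequence holds 250 bases before and 50 bases after the RefSeq start (GRCh38.p14), written 5′ to 3′ on the transcript's strand, and capitals mark matches to the motifs searched. For RAB4A-AS1 and CCNT2-AS1 the RefSeq starts, 229271154 and 134918606, are not those of GENCODE 29, 229271028 and 134918710.
RAB4A-AS1, chr1:229271105-229271404, minus strand: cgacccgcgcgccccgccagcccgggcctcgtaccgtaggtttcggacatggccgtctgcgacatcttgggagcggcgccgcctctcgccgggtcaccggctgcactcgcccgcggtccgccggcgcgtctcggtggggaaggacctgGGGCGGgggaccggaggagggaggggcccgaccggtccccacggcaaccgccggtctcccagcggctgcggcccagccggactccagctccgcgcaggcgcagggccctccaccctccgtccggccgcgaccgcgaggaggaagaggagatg
CCNT2-AS1, chr2:134918557-134918856, minus strand: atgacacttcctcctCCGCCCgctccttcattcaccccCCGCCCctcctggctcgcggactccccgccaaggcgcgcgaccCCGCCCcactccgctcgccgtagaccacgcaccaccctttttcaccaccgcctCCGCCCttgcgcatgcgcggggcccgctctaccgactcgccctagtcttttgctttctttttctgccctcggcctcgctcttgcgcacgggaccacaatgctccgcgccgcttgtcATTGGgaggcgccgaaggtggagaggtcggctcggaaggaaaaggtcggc
RBM26-AS1, chr13:79406059-79406358, plus strand: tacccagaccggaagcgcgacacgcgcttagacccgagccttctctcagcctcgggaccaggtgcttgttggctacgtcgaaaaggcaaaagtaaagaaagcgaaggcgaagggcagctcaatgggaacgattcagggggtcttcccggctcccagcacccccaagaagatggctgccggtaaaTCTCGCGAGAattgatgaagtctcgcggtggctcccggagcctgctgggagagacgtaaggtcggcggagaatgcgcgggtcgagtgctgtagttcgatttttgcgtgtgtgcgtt
MAP3K4-AS1, chr6:160992293-160992592, minus strand: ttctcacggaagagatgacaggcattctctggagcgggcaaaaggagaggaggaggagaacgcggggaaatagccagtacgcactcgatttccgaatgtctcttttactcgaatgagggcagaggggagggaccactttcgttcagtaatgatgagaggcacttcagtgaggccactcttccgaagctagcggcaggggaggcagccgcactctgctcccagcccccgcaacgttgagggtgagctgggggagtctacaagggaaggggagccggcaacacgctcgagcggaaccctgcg

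The motifs searched on both strands were the GC box GGGCGG, the CCAAT box CCAAT, the TATA box TATAAA and the CGCG palindrome known as the Kaiso motif, and none of them contains another. The RAB4A-AS1 window held 1 GC box and the CCNT2-AS1 window 4 GC boxes and 1 CCAAT box, all 5 on the reverse strand. The RBM26-AS1 window held 1 Kaiso palindrome, the run in capitals, and no other match, and the MAP3K4-AS1 window held none of the 4 motifs. The GC content of the windows was 77.0%, 67.3%, 58.7% and 59.0% in that order. RefSeq had 186 such windows for 148 members, of which 124 (66.7%) held GGGCGG, against 45.0% of all 35116 windows of that length. The median GC content was 66.0% in the members' windows and 58.7% in all, and the motif shares were not adjusted for it. CCAAT was found in 32.3% of the members' windows and 34.6% of all, TATAAA in 5.38% and 11.5%, and the Kaiso palindrome in 0.538% and 0.424%. A match is a description of the letters and not of binding.

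The members were mostly of low abundance. Mean TPM over the 28 libraries ran from 0.581 to 89.4 with a median of 5.68, and 49 members exceeded 10 TPM; the partners' median was 20.3 TPM. In 49 of 194 pairs the -AS1 gene had the higher mean TPM. FGD5-AS1 was the most abundant with 89.4 TPM, followed by VPS9D1-AS1 with 72.3, MRPL20-AS1 with 58.6, CIRBP-AS1 with 49.7, THAP9-AS1 with 46.6 and GATA2-AS1 with 36.7. Summed over all members, TPM was 1910 ± 22.8 (SD, n = 2) in untreated and 1657 ± 15.9 in treated degron cells, and 1924 ± 4.35 and 1827 ± 22.4 in the WT line. The lowest treated sums were 1391 ± 66.1 in T4V, from 1838 ± 8.63 untreated, and 1546 ± 45.0 in S5A, from 1961 ± 30.8. In Y1F the treated sum, 1925 ± 70.0, and the untreated sum, 1862 ± 34.3, overlapped between libraries. Since a TPM is a share of each library, a lower sum does not measure RNA per cell.

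Treating the degron line, which has no replacement RPB1, changed 123 of the 194 members (edgeR quasi-likelihood test, Benjamini-Hochberg adjusted p under 0.05 over all genes tested). In the degron line 58 members (29.9%) rose and 65 (33.5%) fell, beside 23.1% and 21.4% of all genes. The members' median change was -0.18 on the log2 scale, with a median of 0.05 over all genes. Besides RBM26-AS1 and SSBP3-AS1, the largest rises included SH3BP5-AS1, from 4.51 and 4.08 to 15.7 and 14.8 CPM (counts scaled to library size and TMM factor), a log2 change of 1.82 ± 0.16 (SE), with 88.3% of its exon bases inside SH3BP5. ST20-AS1 rose by 1.78 ± 0.17, from 2.06 and 2.00 to 6.25 and 7.75 CPM. Besides RAB4A-AS1, the largest falls included SCAMP1-AS1, from 6.17 and 6.57 to 1.47 and 1.5 CPM, and PNISR-AS1, from 8.36 and 9.37 to 2.21 and 2.31 CPM. Neither treated library overlapped an untreated one for any of these members.

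In the line with wild-type replacement 13 members (6.70%) rose and 7 (3.61%) fell, beside 3.09% and 1.84% of all genes. RALY-AS1, which starts 711 bases from the gene of an RNA-binding protein of the hnRNP family, rose from 3.21 and 2.92 to 7.71 and 6.54 CPM (log2 change 1.21 ± 0.17, adjusted p = 0.00019). TMEM147-AS1 fell from 31.2 and 29.9 to 16.2 and 17.4 CPM (-0.86 ± 0.11, adjusted p = 3.2e-05), and CD27-AS1 rose from 4.65 in both libraries to 8.29 and 8.53 CPM (0.85 ± 0.14, adjusted p = 0.00095). Of the 12 members named in WT for their fold change, RALY-AS1 and TMEM147-AS1 kept the call without each library in turn, and the other 10 lost it without at least 1. The count of 20 fell to 7 without untreated replicate 1, to 6 without untreated replicate 2 and to 11 without treated replicate 2.

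Each CTD substitution changed more members than wild-type replacement did by count. In Y1F, where the first tyrosine of the heptad is a phenylalanine, 62 members (32.0%) rose and 47 (24.2%) fell, beside 23.1% and 21.0% of all genes. MAP3K4-AS1 and CD27-AS1 led the rises, and TMEM9B-AS1 rose from 3.59 and 2.58 to 12.7 and 9.95 CPM. MPDU1-AS1 fell from 8.33 and 7.74 to 1.64 and 2.88 CPM, and LYRM4-AS1 from 9.55 and 8.08 to 3.03 and 2.71 CPM. The members' median change was 0.17, above that of all genes at 0.03.

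In S2A, which lacks the serine phosphorylated during elongation, 46 members (23.7%) rose and 44 (22.7%) fell, beside 17.0% and 18.2% of all genes. TRAM2-AS1, which starts beside a gene for an endoplasmic reticulum membrane protein and has no exon base inside it, rose from 5.02 and 5.48 to 20.1 and 17.7 CPM (1.85 ± 0.14, adjusted p = 5.1e-09). PDCD4-AS1 rose from 2.48 and 2.14 to 7.75 and 6.87 CPM. ATP6V0E2-AS1 fell from 9.90 and 11.9 to 5.14 and 4.32 CPM, by 1.20 on the log2 scale.

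In T4V 35 members (18.0%) rose and 56 (28.9%) fell, beside 14.8% and 14.0% of all genes, and the median change was -0.19. The leading rises were PDCD4-AS1, which lost its call without untreated or treated replicate 2 (adjusted p = 0.091 and 0.2), and MSANTD2-AS1, which lost it without untreated replicate 1 (0.09), beside SSBP3-AS1 and MAP3K4-AS1. GATA2-AS1, which overlaps the 5′ end of the gene for a blood and endothelial transcription factor, fell from 57.3 and 42.7 to 19.6 and 18.0 CPM (-1.41 ± 0.17, adjusted p = 2.5e-06). Of its exon bases 38.3% lay inside GATA2. GATA2 itself held 234 and 175 CPM untreated and 202 and 206 treated, which overlap. The fall of the pair's antisense member beyond its partner was -1.40 ± 0.14 in T4V and -1.07 ± 0.14 in S2A, where GATA2 rose by 0.61 (0.12 and 0.09, not called, under the 2 other scalings described below).

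In S5A, which lacks the serine phosphorylated at initiation, 48 members (24.7%) rose and 73 (37.6%) fell, beside 25.5% and 24.2% of all genes. PARD6G-AS1 rose from 1.13 and 1.99 to 8.56 and 10.6 CPM (2.65 ± 0.25) and LAMTOR5-AS1 from 6.37 and 7.08 to 22.4 and 23.9 CPM (1.79 ± 0.19), with LAMTOR5 at -0.19 (adjusted p = 0.13). Inside the partner lay 74.2% and 3.89% of their exon bases. Falls included CIRBP-AS1, at -1.62 on the log2 scale, and MRPL20-AS1, at -1.40, both among the most abundant members. KCTD21-AS1 fell by 1.27 in S5A and rose by 0.59 in Y1F (adjusted p = 0.021; -0.28 with the authors' scaling factors).

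In S7A 47 members (24.2%) rose and 50 (25.8%) fell, beside 17.8% and 17.1% of all genes. KIF9-AS1, with 93.3% of its exon bases inside KIF9, rose from 5.67 and 6.01 to 17.9 and 21.4 CPM, and IDI2-AS1 from 2.11 and 2.14 to 8.39 and 6.57 CPM. PXN-AS1, tail-to-tail with the gene of the focal adhesion protein paxillin, fell from 5.67 and 4.49 to 1.44 and 1.42 CPM (-1.82 ± 0.27), and FZD10-AS1 from 6.59 and 7.11 to 2.34 and 3.16 CPM.

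**Figure D1:**
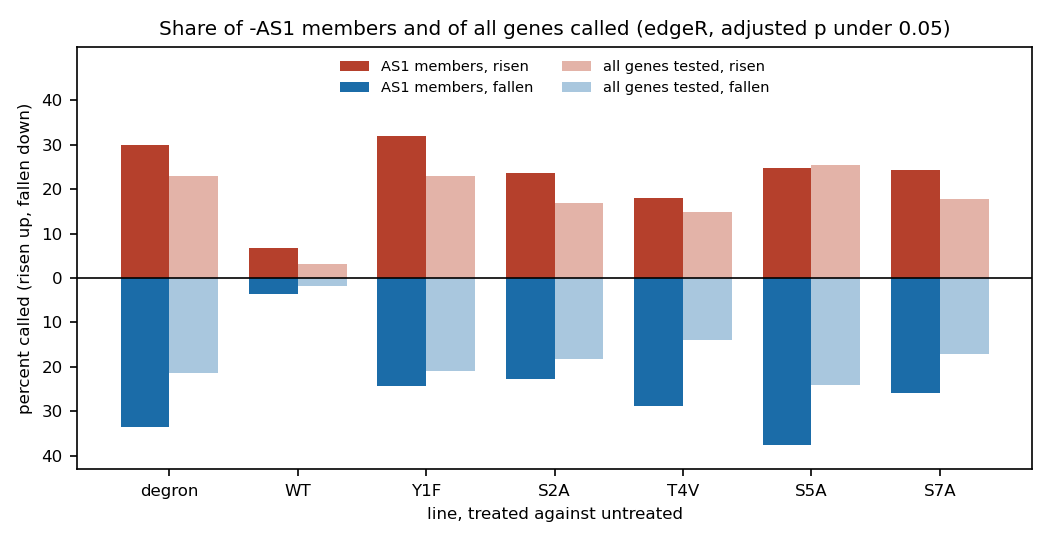
Share of the 194 -AS1 members (percent, vertical axis) that rose or fell with treatment in each of the 7 lines, beside the same share over all 19982 genes tested. The WT line has the lowest shares, 6.70% risen and 3.61% fallen, and S5A the highest share fallen, 37.6%.

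The split between rises and falls depended on the scaling of the libraries. Scaling to the 13 mitochondrial mRNAs moved the median change of all genes by -0.48 in degron, -0.74 in S5A, -0.35 in Y1F, -0.39 in S7A, -0.50 in S2A, -0.58 in T4V and -0.22 in WT, and scaling by the factors recovered from the authors' tables moved it by -0.86, -0.96, -0.87, -0.82, -0.52, -0.46 and -0.24. With mitochondrial scaling 32 members rose and 102 fell in degron (9.72% and 42.5% of all genes), 8 and 22 in WT (2.03% and 9.48%), 41 and 70 in Y1F (13.3% and 36.7%) and 19 and 101 in S2A (7.41% and 46.1%). The counts were 6 and 117 in T4V (4.16% and 48.3%), 18 and 129 in S5A (10.6% and 56.8%) and 25 and 88 in S7A (9.27% and 38.3%). With the authors' factors 16 members rose and 121 fell in degron (6.93% and 60.8% of all genes), 4 and 8 in WT (1.37% and 1.90%), 15 and 118 in Y1F (8.06% and 60.0%) and 13 and 95 in S2A (6.88% and 43.9%). They were 9 and 97 in T4V (4.44% and 33.7%), 12 and 139 in S5A (8.75% and 62.5%) and 8 and 126 in S7A (6.49% and 61.4%). The rises named for the largest fold changes of each line stayed above 0 under both scalings, and KCTD21-AS1 in Y1F did not. Changes are given relative to the TMM scale unless another is named.

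Falls recurred across lines for a common set of members. In at least 5 of the 6 lines other than WT, 36 members fell, 22 of them in all 6. Of all genes 10.4% fell in at least 5 and 5.545% in all 6. Both other scalings move the changes of all genes downward, so falls deepen and rises shrink under them. In WT 7 of the 36 were called fallen and 35 had a log2 change below 0. By position 16 of the 36 were head-to-head, 7 overlapped the partner's 5′ end, 7 were contained, 5 tail-to-tail and 1 apart.

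RAB4A-AS1 (chr1:229258281-229271028, minus strand, starting 34 bases from the gene of an endosomal recycling GTPase) had the largest falls. It has no exon base inside RAB4A in GENCODE 29, whereas its RefSeq start lies inside RAB4A, which GENCODE 29 starts at 229271062. Its level went from 13.9 and 18.5 to 1.90 and 1.56 CPM in degron, from 11.8 and 13.9 to 2.51 and 2.56 in T4V, from 17.1 and 18.9 to 5.44 and 3.62 in Y1F and from 11.5 and 12.1 to 2.85 and 3.73 in S2A. In S5A it went from 16.8 and 19.3 to 2.10 and 1.70 CPM, in S7A from 11.9 and 11.3 to 4.84 and 2.93, and in WT from 17.7 and 16.5 to 13.5 and 10.8. Every treated library of the 6 lines other than WT lay below every untreated library and below both treated WT libraries. The log2 changes were -3.22 ± 0.23 in degron (adjusted p = 6e-10), -3.25 ± 0.24 in S5A (6.6e-10), -2.34 ± 0.23 in T4V, -1.96 ± 0.20 in Y1F, -1.84 ± 0.22 in S2A and -1.57 ± 0.21 in S7A, and -0.50 ± 0.18 in WT (0.13). RAB4A was between 43.8 and 72.4 CPM in all 28 libraries, and its log2 changes ran from -0.22 to 0.08 with no call on the TMM scale. With mitochondrial scaling RAB4A fell too, by 0.40 to 0.74 in the 6 lines other than WT, less than RAB4A-AS1 by the ratio of the pair given below.

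SLC16A1-AS1 (chr1:112956415-113047055, plus strand), head-to-head with the gene of the lactate transporter MCT1, had 5.91% of its exon bases inside SLC16A1. It went from 13.1 and 12.4 to 3.67 and 3.70 CPM in degron, from 21.2 and 19.2 to 6.36 and 5.93 in S2A and from 15.1 in both libraries to 3.69 and 3.70 in S5A. In WT it went from 14.0 and 14.4 to 10.9 and 10.5 CPM. The changes were -1.79 ± 0.13 in degron, -2.03 ± 0.13 in S5A, -1.71 ± 0.12 in S2A and -0.40 ± 0.11 in WT (adjusted p = 0.041). SLC16A1 passed the test only in S2A, where it rose by 0.35 ± 0.13 (adjusted p = 0.046), and there its change was -0.15 with mitochondrial scaling.

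CCNT2-AS1 (chr2:134735464-134918710, minus strand) lies head-to-head with the gene of cyclin T2, a partner of the CTD kinase CDK9, with 16.3% of its exon bases inside it. It was low, from 2.85 to 5.52 CPM in untreated libraries of the 7 lines, and fell to 0.672 and 0.889 in S5A and to 0.967 and 0.930 in T4V. The changes were -2.45 ± 0.29 in S5A and -2.11 ± 0.29 in T4V, and between -0.87 and -1.21 in the other 5 lines. In WT the call (-0.96, adjusted p = 0.017) was lost without untreated replicate 1 (-1.01, 0.088), without untreated replicate 2 (-0.92, 0.13) and without treated replicate 2 (-0.77, 0.21). On the TMM scale CCNT2 was not called in any line, with changes from -0.20 to 0.30, and with mitochondrial scaling it was called in degron (-0.68), S2A (-0.56), S5A (-0.49) and S7A (-0.60).

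TMEM147-AS1 (chr19:35540738-35546029, minus strand), with 1.91% of its exon bases inside TMEM147, fell in every line, from -0.68 ± 0.11 in S2A to -1.38 ± 0.11 in S5A. SCAMP1-AS1 (chr5:78342365-78360507, minus strand), whose partner encodes a secretory carrier membrane protein, has no exon base inside the partner; its falls ran from -0.84 in S2A to -2.09 in degron, and SCAMP1 was not called in any line on the TMM scale. Its WT call (-0.63, adjusted p = 0.034) was lost without each of the 4 WT libraries, with adjusted p from 0.061 to 0.33. PXN-AS1 fell by 1.04 to 2.07 in the 6 lines, while PXN had log2 changes from -0.16 to 0.20 and no call on the TMM scale. Here 62.0% of the exon bases lay inside the partner.

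Not every fall was the antisense member's alone. SPEN-AS1 (chr1:15834474-15848147, minus strand), beside the gene of a transcriptional corepressor and with 1.62% of its exon bases inside it, went from 18.3 and 17.8 to 8.57 and 8.79 CPM in degron and from 22.6 and 25 to 7.98 and 7.56 in S5A, changes of -1.06 ± 0.15 and -1.61 ± 0.16. SPEN fell more, from 563 in both libraries to 122 and 129 CPM in degron (-2.16 ± 0.09) and from 636 and 703 to 123 and 122 in S5A (-2.45 ± 0.09). IRS4-AS1 fell by 1.37 in degron and by 1.26 in S5A, whereas IRS4, an insulin receptor substrate, went from 1376 and 1464 to 174 and 148 CPM in degron (-3.14 ± 0.12) and from 922 and 908 to 50.7 and 54.9 in S5A (-4.11 ± 0.13). IRS4-AS1, with 23.8% of its exon bases inside IRS4, had no count in Mock.

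Rises also recurred. In at least 5 of the 6 lines 35 members rose, 22 of them in all 6, beside 10.2% and 5.745% of all genes. Of the 35, 8 with mitochondrial scaling and 6 using the authors' factors were still called risen in at least 5 lines, and 13 and 19 lay at or below 0 in at least 1 line, beside the downward shift of all genes given above. KIF9-AS1, MAP3K4-AS1, RALY-AS1, RBM26-AS1, SSBP3-AS1 and CD27-AS1 were the members called in at least 5 lines under every scaling. In WT 10 of the 35 were called risen and 34 had a log2 change above 0. By position 16 were head-to-head, 8 tail-to-tail, 6 overlapped the partner's 5′ end, 4 were contained and 1 was apart.

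**Figure D2:**
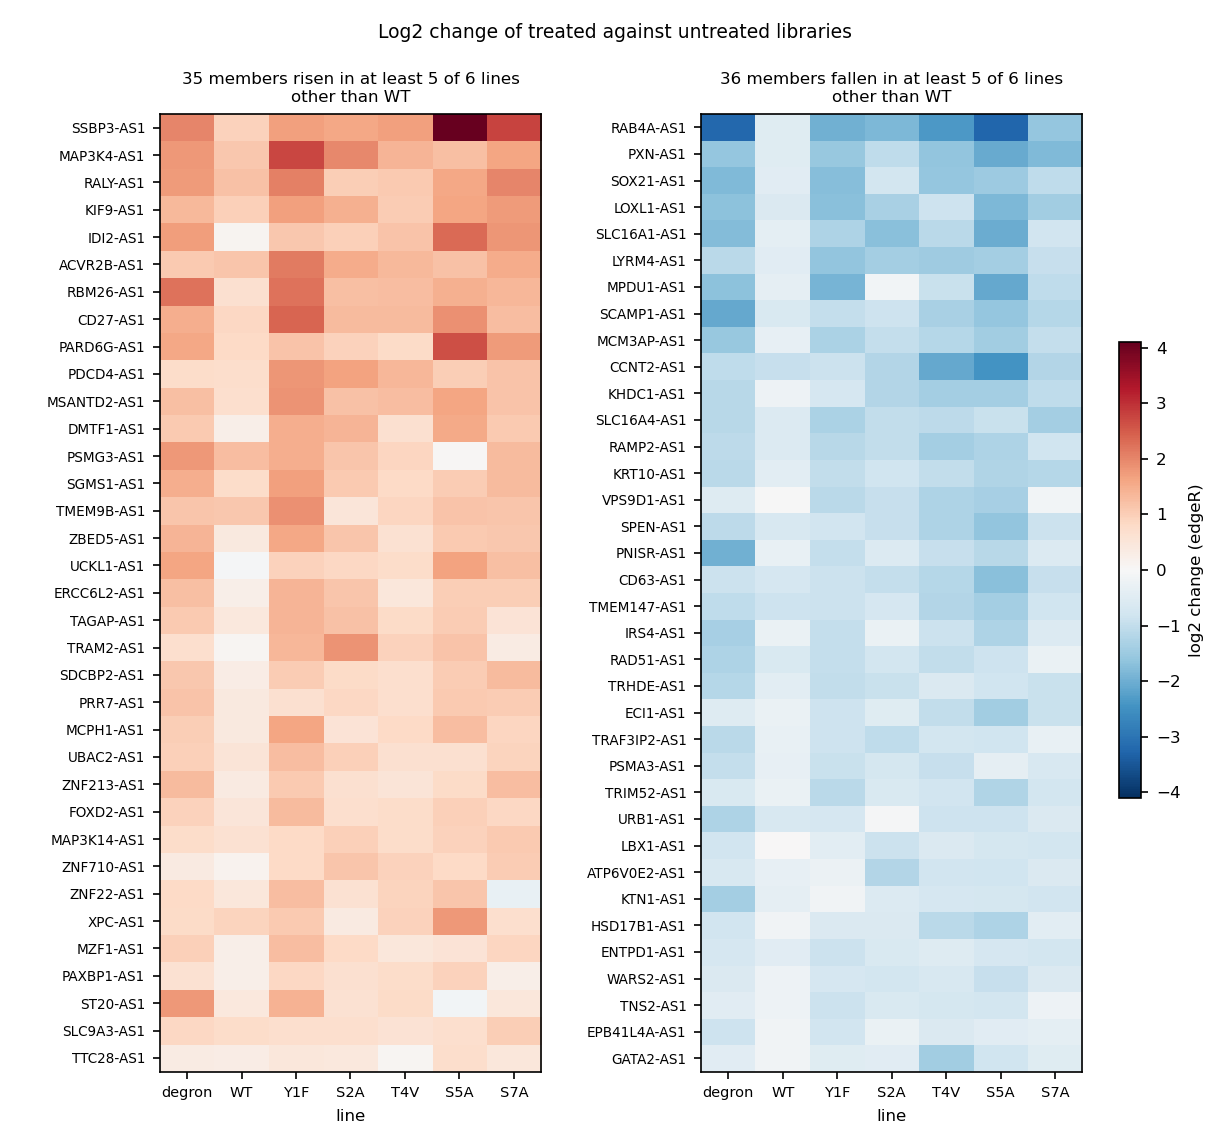
Log2 change with treatment (colour) of the members that rose or fell in at least 5 of the 6 lines other than WT, by line. On this TMM scale 33 of the 35 risen members lie above 0 in all 6 of those lines (ST20-AS1 in S5A and ZNF22-AS1 in S7A lie below), against 22 when scaled to mitochondrial mRNAs and 16 under the authors' factors, and all 36 fallen members lie below 0.

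SSBP3-AS1 (chr1:54236440-54239063, plus strand) had the largest rise. It lies wholly inside the gene of a single-stranded DNA binding protein and only 2.86% of its exon bases lie under exons of the other strand, so its reads and those of unspliced SSBP3 RNA cannot be told apart without strand. Its level went from 1.64 and 1.11 to 21.8 and 25.9 CPM in S5A (4.08 ± 0.22, adjusted p = 7.5e-12), from 0.857 and 1.80 to 7.48 and 10.4 in S7A and from 1.99 and 1.84 to 7.53 and 7.92 in degron. In Y1F, S2A and T4V the treated libraries held 3.90 to 6.21 CPM, above 1.27 to 2.04 in the untreated ones, and in WT 3.07 and 2.41 against 1.32 and 1.53 (0.93 ± 0.27, adjusted p = 0.048). SSBP3 had log2 changes from -0.08 to 0.12 and was not called in any line on the TMM scale, and with mitochondrial scaling it fell by 0.37 to 0.62 outside WT.

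RBM26-AS1 (chr13:79406309-79424328, plus strand), head-to-head with an RNA-binding protein gene and with 4.51% of its exon bases inside it, went from 8.03 and 9.77 to 47.2 and 35.8 CPM in degron and from 7.27 and 8.51 to 39.5 and 33.7 in Y1F. Both changes were 2.22 on the log2 scale, with SE 0.19 and 0.20. The changes were 1.26 in T4V, 1.37 in S7A and 1.47 in S5A, and WT, from 9.24 and 9.10 to 17.9 and 11.5 CPM, had 0.67 ± 0.20 (adjusted p = 0.054). RBM26 had changes of -0.07 to -0.63, the latter in S2A (adjusted p = 0.0073).

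MAP3K4-AS1 (chr6:160990318-160992342, minus strand), beside a stress kinase gene and with 30.4% of its exon bases inside it, rose from 3.27 and 3.52 to 25 and 20.5 CPM in Y1F (2.75 ± 0.24) and from 4.60 and 5.75 to 22.1 and 18.4 in S2A (1.97 ± 0.22). In degron it went from 4.12 and 4 to 14.9 and 13.2 CPM. The WT change of 1.12 ± 0.23 (adjusted p = 0.0061) was not called without untreated replicate 2 (0.97, 0.12) or without treated replicate 1 (0.90, 0.054). MAP3K4 fell by 0.37 in degron and by 0.36 in Y1F and was not called elsewhere.

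ACVR2B-AS1 (chr3:38451027-38454820, minus strand) and its partner ACVR2B, an activin receptor, moved in opposite directions in all 7 lines, and 12.6% of the member's exon bases lay inside ACVR2B. In Y1F the antisense RNA went from 1.39 and 1.63 to 5.85 and 7.48 CPM (2.12 ± 0.25), and ACVR2B from 91.8 and 109 to 55.5 and 51.9 (-0.90 ± 0.11). In degron ACVR2B-AS1 rose by 1.08 ± 0.21, from 2.46 and 3.20 to 5.76 and 6.13 CPM, and ACVR2B fell by 1.14, from 129 and 136 to 65.2 and 55.0. In WT the rise of 1.13 (adjusted p = 0.0084) was not called without untreated replicate 1 (0.11), untreated replicate 2 (0.063) or treated replicate 2 (0.056). ZBED5-AS1 likewise rose by 0.64 to 1.57 in the 6 lines other than WT, in each of which ZBED5 fell, by 0.46 to 1.10, and had 27.0% of its exon bases inside ZBED5. CD27-AS1 (chr12:6439001-6451567, minus strand), with 75.1% of its exon bases inside CD27, rose in all 7 lines, by up to 2.39 ± 0.14 in Y1F, and CD27, a lymphocyte receptor of the TNF receptor family at no more than 4.03 CPM, rose with it in 5.

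**Figure D3:**
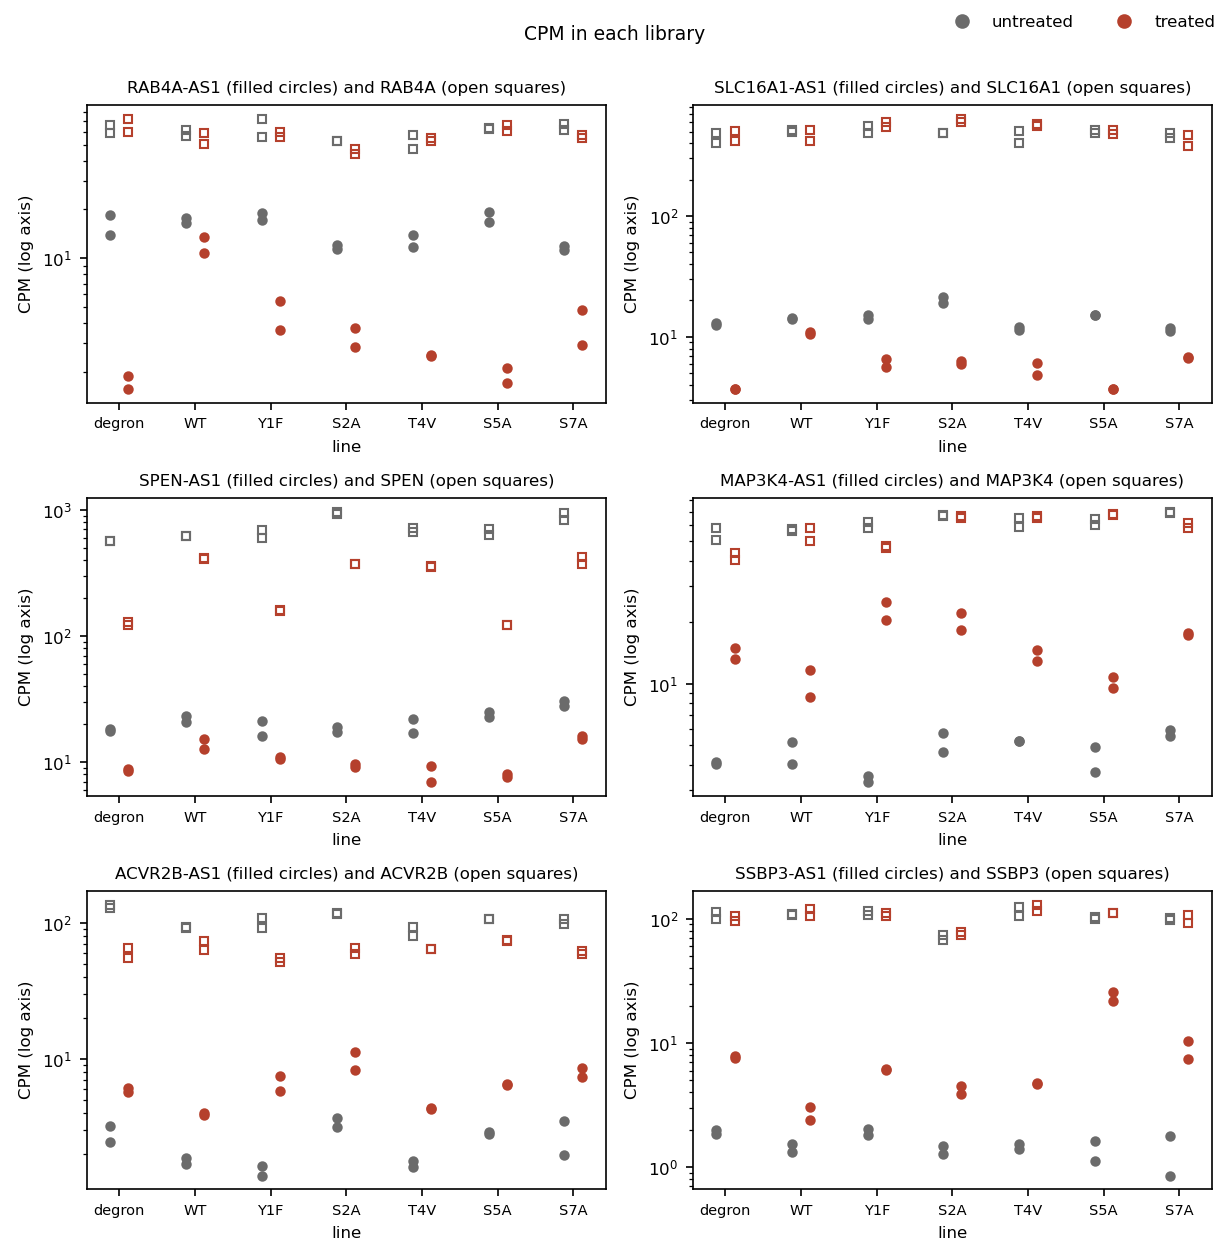
CPM on a log axis of 6 members (filled circles) and their partners (open squares) in every library of the 7 lines, untreated in grey and treated in red. On this TMM scale RAB4A-AS1 and SLC16A1-AS1 drop further than their partners, SPEN drops with SPEN-AS1, and ACVR2B-AS1 rises where ACVR2B falls.

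To ask whether a member and its partner changed alike, the log2 ratio of the pair was tested in each library, which does not depend on scaling (limma, Benjamini-Hochberg over 19040 pairs of neighbouring or matched genes). The ratio changed in 103 of 190 pairs in degron, 109 in S5A, 109 in Y1F, 88 in S7A, 87 in S2A, 81 in T4V and 16 in WT. Over all pairs the shares were 47.6%, 53.7%, 49.0%, 39.0%, 40.0%, 34.2% and 9.64% in that order. The antisense member moved above its partner in 59 pairs and below it in 44 in degron, 60 and 49 in S5A, 72 and 37 in Y1F, 48 and 40 in S7A, 49 and 38 in S2A, 34 and 47 in T4V and 10 and 6 in WT. The WT count was 7 without either untreated replicate and 9 without treated replicate 2.

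Of the 190 pairs, both genes changed in opposite directions in 20 in degron, 18 in S5A, 23 in Y1F, 13 in S7A, 16 in S2A, 9 in T4V and 1 in WT. The antisense member was the one that rose in 16 of 20, 11 of 18, 20 of 23, 9 of 13, 12 of 16 and 4 of 9 of them in that order outside WT. Over all 19040 pairs the shares with opposite directions were 9.05%, 11.4%, 9.41%, 5.28%, 5.81%, 3.88% and 0.0788% in the same order of lines. Both genes changed in the same direction in 42 of the 190 pairs in degron, 42 in S5A, 31 in Y1F, 25 in S7A, 18 in S2A, 26 in T4V and 2 in WT. Over all 19040 pairs those shares were 11.8%, 14.4%, 11.2%, 7.70%, 7.42%, 5.11% and 0.320%. These directions, unlike the ratios, are on the TMM scale.

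The largest separation was that of SSBP3-AS1, 3.87 ± 0.27 above its partner in S5A (adjusted p = 1.2e-11), and MAP3K4-AS1 moved above its partner by 3.04 ± 0.41 in Y1F. ACVR2B-AS1 moved above its partner by 2.93 ± 0.25 in Y1F (adjusted p = 8.2e-10) and by 1.52 ± 0.25 in WT, and RBM26-AS1 by 2.57 ± 0.14 in degron (2.6e-13). IRS4-AS1 moved above IRS4 by 2.91 ± 0.20 in S5A and ZBED5-AS1 above ZBED5 by 2.39 ± 0.22 in degron. RAB4A-AS1 moved below RAB4A by -3.19 ± 0.20 in degron and -3.16 ± 0.20 in S5A, and TSPEAR-AS1 below TSPEAR by -3.36 ± 0.32 in S5A, where TSPEAR rose by 2.32 and TSPEAR-AS1 fell by 1.16. NUTM2B-AS1 moved below its partner by -3.67 ± 0.37 in Y1F, but NUTM2B has near-identical copies and its counts are uncertain.

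**Figure D4:**
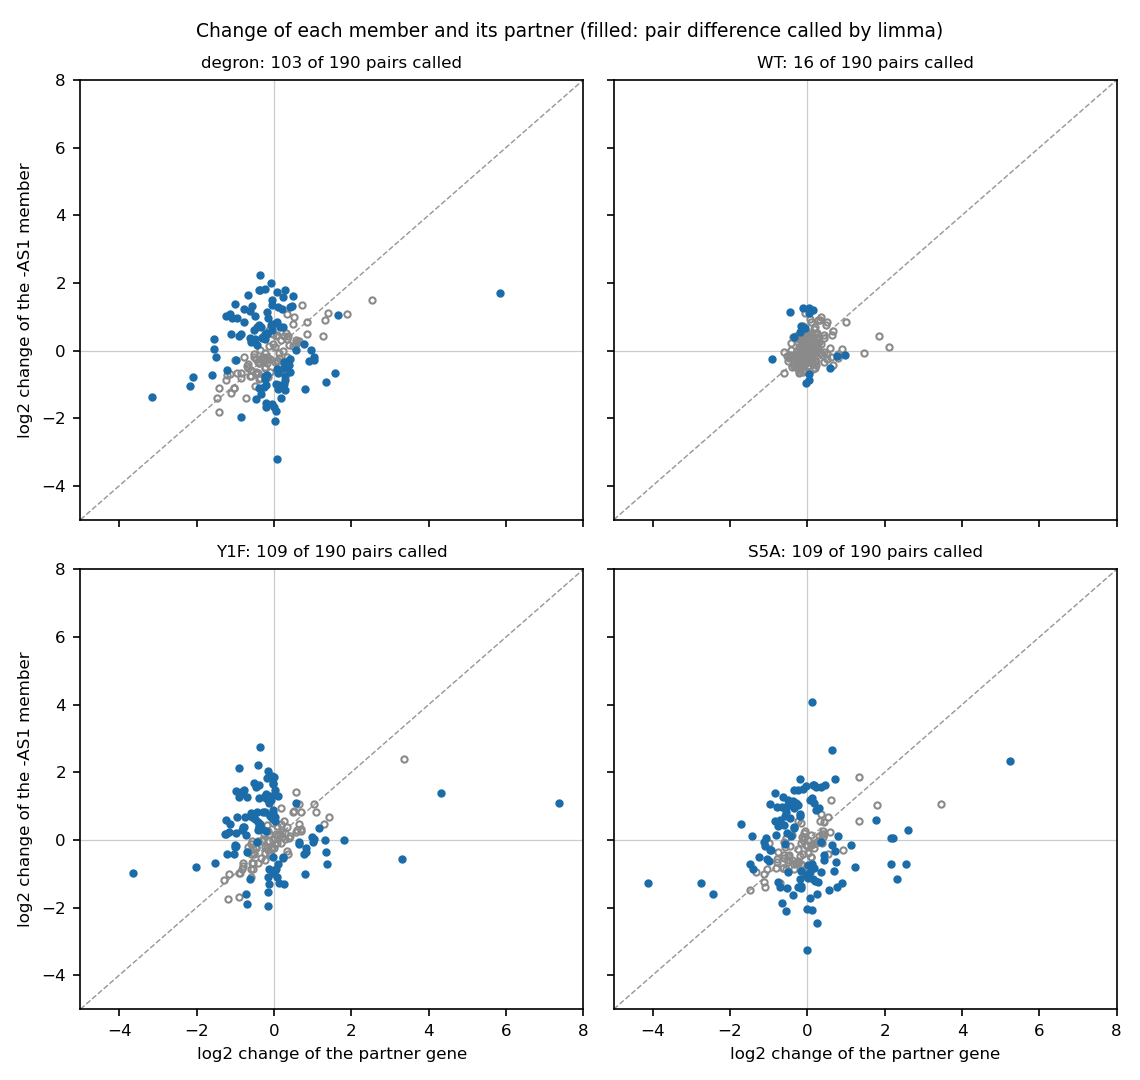
Log2 change of the -AS1 member (vertical) against that of its partner (horizontal) for 190 pairs in degron, WT, Y1F and S5A, with pairs whose ratio changed in colour and the line of equal change dashed. Called pairs number 103, 16, 109 and 109, and lie on both sides of the line.

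Head-to-head pairs had called ratios in 60.6% in degron, 63.4% in S5A, 66.2% in Y1F, 54.9% in S7A, 62.0% in S2A, 54.9% in T4V and 18.3% in WT. In contained pairs the shares were 40.0%, 42.5%, 45.0%, 32.5%, 30% and 32.5% in the same 6 lines without WT, and tail-to-tail pairs lay between 34.1% and 59.1%. These shares are descriptions, and the classes were not tested against each other. The counts that follow, over members with no exon base inside the partner, were added after the data had been seen. Among the 23 members with no exon base inside the partner, for which partner introns of that annotation cannot add reads, 4 rose (17.4%) and 12 fell (52.2%) in degron, beside 23.1% and 21.4% of all genes, 3 and 12 in S5A (13.04% and 52.2%, beside 25.5% and 24.2%) and 2 and 11 in S7A (8.70% and 47.8%, beside 17.8% and 17.1%). In Y1F they were 5 and 8 (21.7% and 34.8%, beside 23.1% and 21.0%), in T4V 4 and 8 (17.4% and 34.8%, beside 14.8% and 14.0%) and in WT 1 and 1. The S2A counts of 4 and 5 (17.4% and 21.7%) were near the 17.0% and 18.2% of all genes. Of all 194 members 29.9% rose and 33.5% fell in degron, 24.7% and 37.6% in S5A and 24.2% and 25.8% in S7A. The members' shares were 32.0% and 24.2% in Y1F, 18.0% and 28.9% in T4V and 23.7% and 22.7% in S2A.

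To ask which members responded differently with a mutated CTD than with a wild-type CTD, the change in WT was subtracted from that in each mutant in the same fit. The 5 mutant comparisons share the 4 WT libraries. In S5A 20 members were higher and 41 lower than in WT, beside 6.40% and 11.7% of all genes, and in Y1F 21 and 11 (3.42% and 6.31%). In S2A 7 were higher and 6 lower (2.87% and 4.66%), in T4V 2 and 10 (1.36% and 2.35%) and in S7A 2 and 0 (0.325% and 0.495%). For S7A 23 members were lower at an unadjusted p under 0.05, and DESeq2 also called 0 lower. Against the degron line, 26 members were higher and 14 lower in WT (8.24% and 3.79%). With the authors' factors the split became 3 higher and 107 lower in S5A (1.41% and 42.2% of all genes), 0 and 9 in T4V (0.0601% and 2.88%), and 75 higher and 1 lower for WT against degron (30.2% and 0.646%). In Y1F it was 3 and 56 (0.896% and 34.2%), in S7A 1 and 44 (0.345% and 21.5%) and in S2A 1 and 12 (0.696% and 6.75%), where the members' shares lower, 28.9%, 22.7% and 6.19%, were below or near those of all genes. With mitochondrial scaling it was 5 and 97 in S5A (1.88% and 34.8%), 10 and 12 in Y1F (1.46% and 6.14%), 1 and 16 in S2A (0.991% and 10.2%), 0 and 43 in T4V (0.13% and 10.6%), 0 and 4 in S7A (0.135% and 0.976%), and 40 and 5 for WT against degron (13.3% and 1.10%).

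RAB4A-AS1 fell further than in WT in 4 mutants, by -2.75 ± 0.30 in S5A (adjusted p = 3.8e-06), -1.84 ± 0.30 in T4V, -1.46 ± 0.27 in Y1F and -1.34 ± 0.29 in S2A, and the difference in S7A was -1.07 ± 0.28 (0.073). The S2A call was lost without treated S2A replicate 1 (-1.15, adjusted p = 0.069). Its change in WT was 2.72 ± 0.30 above that in degron (3.1e-06). SLC16A1-AS1 fell further by -1.62 ± 0.17 in S5A, -1.31 ± 0.17 in S2A and -0.87 ± 0.17 in Y1F, and its WT change was 1.39 ± 0.17 above degron. GATA2-AS1 fell further in T4V by -1.28 ± 0.23 (0.0042) and in S5A by -0.70 ± 0.23 (0.038).

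SSBP3-AS1 rose further than in WT in S5A by 3.15 ± 0.37 (7.3e-06). Its difference in S7A, 1.82 ± 0.37 (0.023), was lost in 5 of the leave-one-out fits, and those in Y1F, S2A and T4V were 0.67 to 0.76 without a call. TRAM2-AS1 rose further in S2A by 1.78 ± 0.22 (5.3e-05), in Y1F by 1.29 ± 0.23 and in S5A by 1.10 ± 0.24. CD27-AS1, RBM26-AS1 and MAP3K4-AS1 rose further in Y1F, by 1.54 ± 0.20, 1.54 ± 0.28 and 1.62 ± 0.34. LAMTOR5-AS1 rose further in S5A by 1.59 ± 0.28, and KCTD21-AS1 fell further there by -1.62 ± 0.32 (0.0013). The counts behind these comparisons rest in part on single libraries: 32 in Y1F became 16 without treated Y1F replicate 1, 18 without untreated WT replicate 1 and 19 without untreated WT replicate 2. The count of 61 in S5A became 37 without treated WT replicate 2 or treated S5A replicate 2, and that of 40 for WT against degron became 22 without untreated WT replicate 1. In S2A, T4V and S7A the counts of 13, 12 and 2 ranged over 4 to 16, 2 to 19 and 0 to 5, each moved past 1.5-fold by at least 6 of the 8 libraries.

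**Figure D5:**
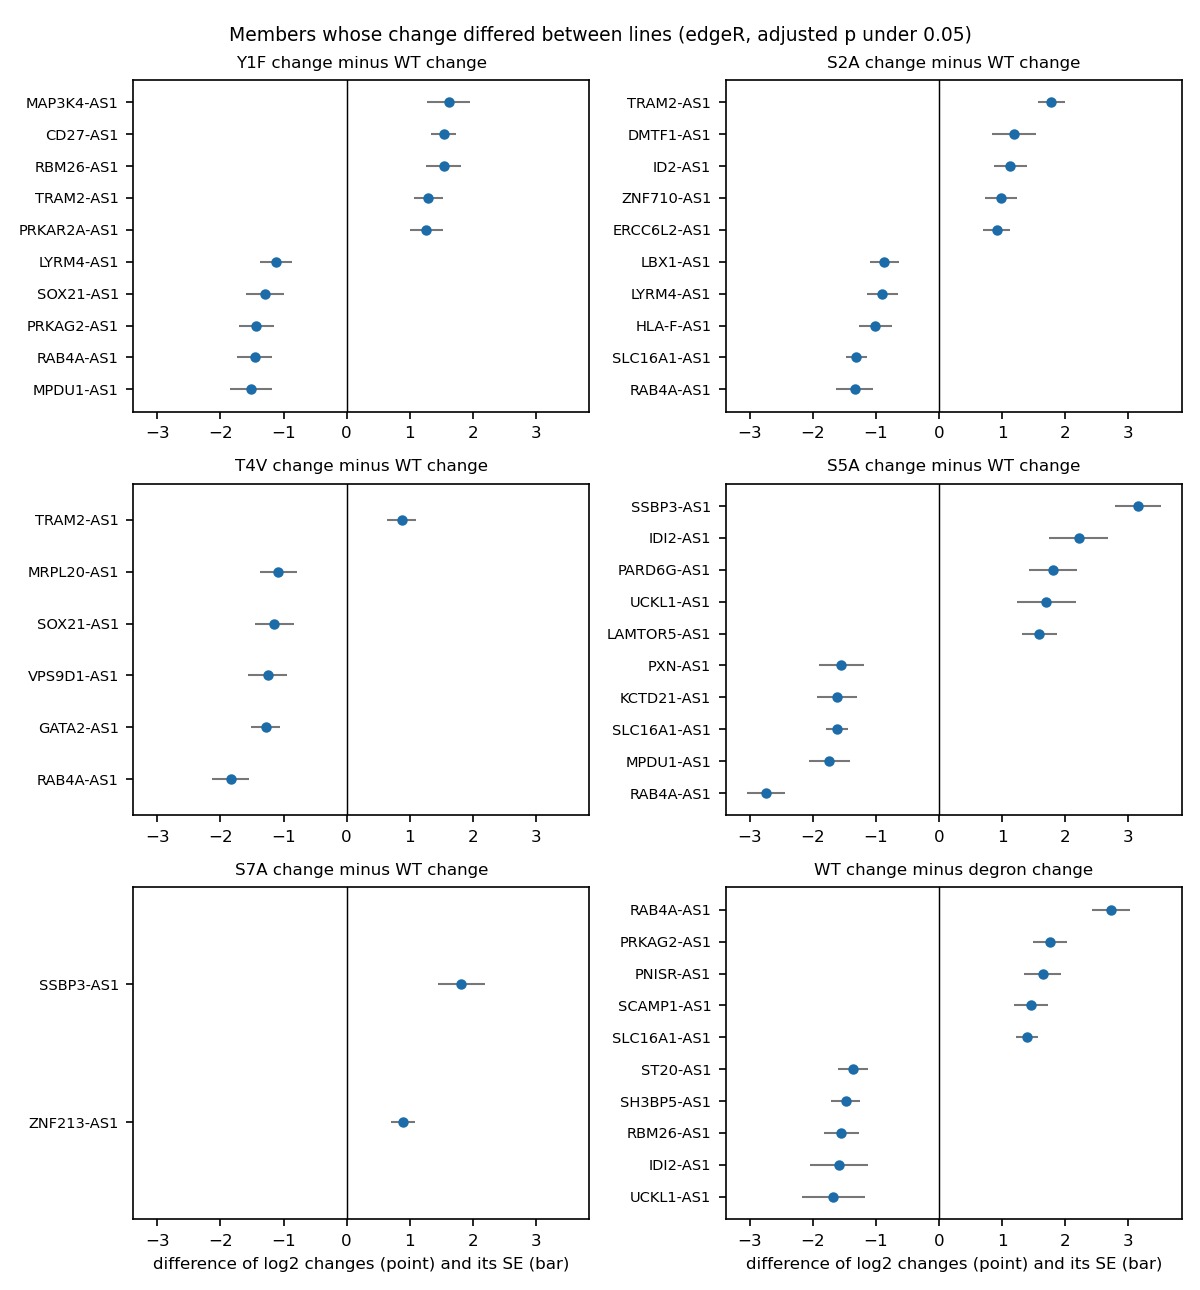
Difference in log2 change between lines (horizontal, with standard error) for the leading members of 6 comparisons, mutant against WT and WT against degron. RAB4A-AS1 lies at -2.75 in S5A and at 2.72 for WT against degron, and SSBP3-AS1 at 3.15 in S5A. Of the calls, 8 of 10 for S2A were lost without at least 1 library. In most of the fits that left out 1 library, 4 of the 6 shown for T4V and both for S7A were lost.

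FGD5-AS1 (chr3:14920347-14948424, minus strand), the most abundant member, was between 79.2 and 181 CPM in the 28 libraries, its log2 changes ran from -0.14 to 0.19 and it was not called in any line on the TMM scale. With mitochondrial scaling it had changes from -0.16 to -0.88 and was called fallen in 5 lines. Its partner FGD5, an exchange factor for CDC42, rose by 2.81 in S2A, from 0.141 and 0.267 to 1.30 and 1.70 CPM. VPS9D1-AS1, second in abundance and contained in its partner, fell in 5 lines, by up to 1.37 in S5A, and was at -0.11 in S7A (adjusted p = 0.72).

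Genes linked to the ending or decay of antisense RNA were read from a list of 30 exosome, adaptor, Integrator and termination genes. Not each of them need promote decay. In degron 1 of the 30 rose (3.33%, beside 23.1% of all genes) and 14 fell (46.7%, beside 21.4%), and in S5A 2 rose (6.67%, beside 25.5%) and 17 fell (56.7%, beside 24.2%). In Y1F 1 rose and 11 fell (3.33% and 36.7%, beside 23.1% and 21.0%), in S7A 0 and 13 (43.3% fallen, beside 17.8% and 17.1%) and in S2A 2 and 9 (6.67% and 30%, beside 17.0% and 18.2%). In T4V 4 rose, 13.3% and near the 14.8% of all genes, and 11 fell (36.7%, beside 14.0%), and in WT 0 rose and 1 fell (3.33% fallen, beside 3.09% and 1.84%). The list's median change was -0.23 in degron and -0.37 in S5A, beside 0.05 and 0.02 over all genes. NRDE2, a nuclear protein that binds the exosome helicase, fell by 1.71 in degron, and its fall is not a measure of decay. EXOSC3, an exosome cap subunit, fell by 1.57 in S5A and 1.11 in degron. MTREX, the exosome helicase, fell by 0.82 in degron and 1.14 in S5A, and ZCCHC8, its partner in the NEXT complex, by 1.23 in degron. PCF11, a termination factor, rose by 0.65 in S2A and ZC3H18, a cap-binding adaptor, by 0.95 there, both on the TMM scale. Their part in the antisense changes was not tested.

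Other noncoding classes moved in both directions too. All genes risen and fallen made up 23.1% and 21.4% in degron, 23.1% and 21.0% in Y1F, 25.5% and 24.2% in S5A and 14.8% and 14.0% in T4V. Of 66 tested -AS2 to -AS4, -IT1 and -OT1 transcripts, 10 rose and 15 fell in degron (15.2% and 22.7%), 12 and 8 in Y1F (18.2% and 12.1%) and 16 and 14 in S5A (24.2% and 21.2%), each below the share of all genes except the falls in degron, which were near it. Of 94 divergent transcripts (-DT) with the same count sum, 29 rose and 29 fell in degron (30.9% each), 34 and 18 in Y1F (36.2% and 19.1%), 16 and 30 in T4V (17.0% and 31.9%) and 26 and 36 in S5A (27.7% and 38.3%). Of 78 LINC genes 22 rose and 26 fell in degron (28.2% and 33.3%), 27 and 20 in Y1F (34.6% and 25.6%) and 21 and 26 in S5A (26.9% and 33.3%). Their median changes in degron were -0.15 for the first class, -0.09 for -DT and -0.14 for LINC genes, beside -0.18 for the -AS1 members. The first class holds those tested, whereas the -DT, LINC and -AS1 genes needed the count sum, so its shares are not at a like threshold. No test of these classes against the -AS1 members was made.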

How the data were processed

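Polyadenylated RNA of 30 libraries was sequenced as 150-base read pairs, with 10% fly cells added. Per the submitters' processing notes, Trim Galore 0.6.2, STAR 2.7.3a, featureCounts 2.0.1 and DESeq2 1.24.0 were used with hg38 and dm6; annotation and strand setting: not given in the sources used here. Raw counts and TPM per gene were deposited per library by the authors, and no fly genes are listed. The deposited tables of the authors' comparisons give a base mean (a signal averaged over a line's libraries), log2 fold changes and p-values per line; these were used only to recover the authors' scaling factors.

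From the counts, edgeR 4.0.16 (R 4.3.3; TMM, robust quasi-likelihood, 1 coefficient per group over 30 libraries) gave log2 changes, with standard errors from the F statistic and Benjamini-Hochberg adjustment over the 19982 genes kept by filterByExpr (minimum count 10, total 15). Gene pairs were tested with limma 3.58.1 on log2 CPM with a prior count of 2. Both were tested on data simulated with the same dispersion of 0.0122 in every group. There edgeR called 28 of 50 genes lowered 2-fold, 33 of 50 raised 2-fold, 40 of 50 lowered 4-fold and 50 of 50 raised 4-fold. It also called 5 unchanged genes, and limma called 199 of 323 changed pairs and 8 unchanged ones. The real groups differ in spread, as given below, which the simulation did not cover. Python 3.11.15 with pandas 2.3.3 and matplotlib 3.10.9 made the summaries and figures. Positions come from GENCODE 29, promoters from RefSeq.

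The members and gene lists were chosen with earlier results of these data known. Named were the 10 most abundant members, up to 6 per direction and line by fold change where treated and untreated libraries did not overlap, members changed alike in at least 5 lines, up to 5 pairs and up to 5 differences per direction, and the neighbours of the count limit; 1 difference chosen this way is not reported here. Alternatives covered scaling, filters, DESeq2 1.42.0, fits without Mock, of a line's own libraries and without each library. Over all genes the libraries of 1 group differed by a chi-square per degree of freedom of 1.25 or more, up to 24.7 in untreated T4V, 22.8 in treated WT and 17.3 in treated S7A. Over the members alone it ran from 0.983 in treated S5A and 1.00 in untreated S2A to 5.29 in untreated T4V.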

Additional observations from a re-analysis of the deposited data

Results flagged for a closer look

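The members below changed differently in 2 lines by the test of the difference itself (edgeR, Benjamini-Hochberg adjusted p under 0.05), given as the difference in log2 change with up to 5 per direction and comparison. The mutant comparisons share the WT libraries.

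In Y1F against WT the higher members were MAP3K4-AS1 at 1.62, RBM26-AS1 at 1.54, CD27-AS1 at 1.54, TRAM2-AS1 at 1.29 and PRKAR2A-AS1 at 1.26. The lower ones were MPDU1-AS1 at -1.52, RAB4A-AS1 at -1.46, PRKAG2-AS1 at -1.43, SOX21-AS1 at -1.29 and LYRM4-AS1 at -1.12. The call for PRKAR2A-AS1 was lost without untreated WT replicate 1 (1.01, adjusted p = 0.081) and that for MPDU1-AS1 without treated Y1F replicate 1 (-1.11, 0.068).

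In S2A against WT the higher members were TRAM2-AS1 at 1.78, DMTF1-AS1 at 1.18, ID2-AS1 at 1.13, ZNF710-AS1 at 0.98 and ERCC6L2-AS1 at 0.91. The lower ones were RAB4A-AS1 at -1.34, SLC16A1-AS1 at -1.31, HLA-F-AS1 at -1.01, LYRM4-AS1 at -0.90 and LBX1-AS1 at -0.87. The calls for TRAM2-AS1 and SLC16A1-AS1 held without each library, and the other 8 were lost without at least 1. The call for DMTF1-AS1 was lost in every fit that left out 1 library, and those for ZNF710-AS1, LYRM4-AS1 and LBX1-AS1 in most of them.

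In T4V against WT TRAM2-AS1 was higher at 0.87, and the lower members were RAB4A-AS1 at -1.84, GATA2-AS1 at -1.28, VPS9D1-AS1 at -1.25, SOX21-AS1 at -1.15 and MRPL20-AS1 at -1.08. The calls for RAB4A-AS1 and GATA2-AS1 held without each library, and the other 4 were lost in most of the fits that left out 1 library.

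In S5A against WT the higher members were SSBP3-AS1 at 3.15, IDI2-AS1 at 2.21, PARD6G-AS1 at 1.81, UCKL1-AS1 at 1.70 and LAMTOR5-AS1 at 1.59. The lower ones were RAB4A-AS1 at -2.75, MPDU1-AS1 at -1.74, SLC16A1-AS1 at -1.62, KCTD21-AS1 at -1.62 and PXN-AS1 at -1.55. The call for UCKL1-AS1 was lost without any 1 of 4 libraries (adjusted p from 0.061 to 0.11). In S7A against WT SSBP3-AS1 was higher at 1.82 and ZNF213-AS1 at 0.90, and both calls were lost without any 1 of 5 libraries.

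For WT against degron the higher members were RAB4A-AS1 at 2.72, PRKAG2-AS1 at 1.75, PNISR-AS1 at 1.64, SCAMP1-AS1 at 1.46 and SLC16A1-AS1 at 1.39. The lower ones were UCKL1-AS1 at -1.68, IDI2-AS1 at -1.59, RBM26-AS1 at -1.55, SH3BP5-AS1 at -1.48 and ST20-AS1 at -1.36. The calls for UCKL1-AS1 and IDI2-AS1 were lost in most of the fits that left out 1 library.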

How the results depend on the processing

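SLC16A1 in S2A went from 0.35 to -0.15 when scaled to mitochondrial mRNAs and to -0.17 under the authors' factors, and KCTD21-AS1 in Y1F from 0.59 to -0.28 under the latter. On those scales the members' median change in Y1F went from 0.17 to -0.18 and -0.70, and the difference of Y1F from WT from 21 higher and 11 lower to 10 and 12, and 3 and 56. Of the treated against untreated counts, 57 of 63 alternative values other than leave-one-out lay within 1.5-fold of the reported one. The exceptions included 12 members in WT with the authors' factors, and 78 in S5A and 63 in S7A among genes of at least 5 CPM. That filter tested fewer genes and left 120 members, of which 29.2% rose and 35.8% fell in S5A and 30.8% and 21.7% in S7A. The other exceptions were 0 in WT, 54 in T4V and 59 in S7A when a line's own libraries were fitted alone. In that edgeR fit 35 WT members had an unadjusted p under 0.05, and DESeq2 called 15. With equally few libraries S2A went up from 90 to 109 and S5A from 121 to 137. The main fit shares 1 estimate of the spread over the 15 groups. Libraries of 1 group differed most in untreated T4V, treated WT and treated S7A, so calls there depend on that sharing. The part of the spread in these counts was not tested. Of the difference counts 38 of 54 lay within 1.5-fold. With the authors' factors they were 59 (Y1F), 110 (S5A), 45 (S7A) and 76 (WT against degron), with mitochondrial scaling 43 (T4V), 102 (S5A) and 4 (S7A), with no low-count filter 20 (Y1F), 8 (S2A) and 7 (T4V), and with DESeq2 4 (S7A). With own libraries alone they were 11 (Y1F), 3 (S2A), 0 (T4V), 0 (S7A) and 12 (WT against degron); unadjusted, 28 and 26 members passed in T4V and S7A, and DESeq2 called 11 and 4. Recurrent rises numbered 8 and 6, and recurrent falls 78 and 98, with mitochondrial scaling and the authors' factors. In the lines outside WT 36.7% to 56.8% of all genes fell with mitochondrial scaling and 33.7% to 62.5% with the authors' factors. The share of all genes that recurred is not given for these scalings, so the counts are not shown to be particular to the members. Recurrent falls numbered 20 at 5 CPM, where 120 members were left. Apart from the scalings and that filter, the cause was not tested. All 28 pair counts under alternatives stayed within 1.5-fold. For named genes 371 alternative values kept their call, 31 lost it and the 3 given first changed sign. A count sum of 2800 left 76 members.

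Without each library in turn, members called ranged over 104 to 106 in degron, 6 to 14 in WT, 88 to 94 in Y1F, 62 to 64 in S2A, 62 to 75 in T4V, 103 to 111 in S5A and 70 to 86 in S7A. Differences ranged over 16 to 33 (Y1F), 4 to 16 (S2A), 2 to 19 (T4V), 37 to 61 (S5A), 0 to 5 (S7A) and 22 to 42 (WT against degron). Pairs ranged over 82 to 89, 7 to 15, 86 to 90, 61 to 71, 56 to 61, 90 to 94 and 60 to 72 in the same order of lines.

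Replicate numbers showed no pairing of the libraries that was common to the lines. Deviations of same-numbered libraries correlated at -0.751 (degron), -0.506 (WT), -0.623 (Y1F), 0.122 (S2A), -0.0915 (T4V), -0.00545 (S5A) and 0.654 (S7A). Same-numbered libraries thus deviated together in S7A and in opposite directions in degron, Y1F and WT. Whether libraries were paired in any of these lines, by number or otherwise, is not known. A block by replicate number covers only a pairing by number. With a replicate block the member counts were 122, 19, 109, 88, 92, 121 and 97, the difference counts 31, 12, 9, 58, 3 and 37, and the pair counts 104, 16, 108, 88, 79, 110 and 89. Low counts, with a median of 33 to 128 counts per member and library, the lowest in Mock, limit what could be detected for scarce members.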
